A study of Arabidopsis thaliana with 3 samples.

Results

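The WRKY genes encode a large family of plant transcription factors, and their chromatin was examined here in Arabidopsis thaliana roots. The members were 51 WRKY loci chosen by their locus numbers, among 27444 protein-coding genes on the 5 nuclear chromosomes. The annotation held 20 other genes with a WRKY number, which were counted only among all protein-coding genes. The assay was ATAC-seq, which uses the transposase Tn5 to place adapters for sequencing into DNA that nucleosomes leave free, so that reads pile up where chromatin is accessible. The nuclei came from roots of Col-0 plants at 14 days of age that were kept in long days on vertical agar. All plants carried the INTACT transgene, which puts a biotin tag on the nuclear envelope and allows the purification of nuclei with streptavidin. The transgene was driven by the constitutive 35S promoter, so the nuclei represent the mixed cell types of the root and not a single one. There were 3 libraries of 1 group, and no other tissue, genotype or treatment was compared. The libraries were biological repeats made from different amounts of nuclei, which increased in the order of the library numbers.

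WRKY proteins carry a zinc finger domain, typically with the conserved amino acids WRKYGQK, and bind the W-box, which is read as TTGACC or TTGACT. They are best known from immunity, where MAP kinase cascades and VQ proteins act on them, and from stress, senescence and the phosphate response of the root. Many are induced by pathogens or salicylic acid and bind the promoters of other family members.

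The libraries held an estimated 9850039, 10223285 and 18130442 reads, and a read was counted in about 6 windows of 100 bp. Promoter signal is the mean window count from 1000 bp upstream to 400 bp downstream of the transcription start site (TSS), given as a fold of the mean count of that library over the nuclear genome. An accessible site is a peak that the authors called in a library. A gene is called open where each of the 3 libraries had a site overlapping this promoter window, and closed where no library had a site from 2000 bp upstream of the TSS to the gene end. The tissue was checked with 8 root and 6 leaf or shoot markers. The root genes SHR and SCR were open and the genes RHD6 of root hairs, CASP1 of the endodermis and WOX5 and PLT1 of the stem cell niche were closed, and among the leaf and shoot genes RBCS1A was open while AG and SPCH were closed. The open genes were 2 of the 8 root markers and 1 of the 6 leaf or shoot markers, against 46.4% of all protein-coding genes. The median promoter signal was 1.10 for the root list and 0.643 for the leaf and shoot list, against 1.29 for all protein-coding genes, so neither list was above the ordinary gene. In such bulk nuclei, a site open in few cells and a site weakly open in all cells cannot be told apart.

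To show examples of accessible DNA, stretches of accessible sites upstream of the 3 members with the highest promoter signal were read from the RefSeq genome (TAIR10.1). Bases are printed on the strand of the gene, W-boxes on either strand are in capitals (AGTCAA and GGTCAA are the W-box read from the other strand), and bases of transcribed exons are left out. The strongest shared sites of WRKY57 and WRKY17 had summits 103 and 98 bp downstream of the TSS in untranslated exons and are therefore not printed. The stretch of WRKY57 (AT1G69310) is chr1:26059069-26059368 on the minus strand, with its summit at -836 bp from the TSS. The stretch of WRKY17 (AT2G24570) is chr2:10440460-10440759 on the minus strand, with its summit at -1141 bp, so that the site reaches into the promoter window only with its proximal end. The printed stretch runs from -1290 to -991 bp, so most of it lies outside the promoter window. That of WRKY11 (AT4G31550) is chr4:15292430-15292729 on the minus strand, with its summit at -672 bp.
WRKY57: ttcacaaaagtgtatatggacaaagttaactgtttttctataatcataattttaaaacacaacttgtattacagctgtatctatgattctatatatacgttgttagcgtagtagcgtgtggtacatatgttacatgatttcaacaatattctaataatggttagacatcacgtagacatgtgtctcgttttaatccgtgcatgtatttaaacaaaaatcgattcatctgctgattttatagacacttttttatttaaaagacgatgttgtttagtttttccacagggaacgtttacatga
WRKY17: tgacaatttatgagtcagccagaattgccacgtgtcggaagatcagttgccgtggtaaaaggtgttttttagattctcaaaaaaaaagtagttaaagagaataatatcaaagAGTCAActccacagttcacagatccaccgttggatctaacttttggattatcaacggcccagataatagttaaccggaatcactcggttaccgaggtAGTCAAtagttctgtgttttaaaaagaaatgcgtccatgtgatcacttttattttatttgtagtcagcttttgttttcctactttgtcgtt
WRKY11: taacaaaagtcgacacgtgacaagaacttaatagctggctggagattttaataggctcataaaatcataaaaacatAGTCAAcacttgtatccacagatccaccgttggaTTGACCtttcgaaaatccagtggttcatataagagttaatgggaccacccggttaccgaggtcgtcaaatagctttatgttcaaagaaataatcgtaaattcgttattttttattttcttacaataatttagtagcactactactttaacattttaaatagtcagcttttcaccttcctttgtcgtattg
No W-box was found in the stretch of WRKY57, and the other stretches held 2 each, out of 5 in the whole site of WRKY17 and 3 in that of WRKY11. WRKY17 and WRKY11 are closely related factors that restrain basal resistance in leaves, and their stretches shared a run of 19 identical bases, cacagatccaccgttggat. In all other pairs of the 6 site sequences printed here, the longest shared run was between 7 and 12 bases.

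The promoters of most WRKY genes were accessible in the root. A site was present in the promoter window in all 3 libraries in 41 of the 51 WRKY genes (80.4%), against 46.4% of all protein-coding genes. There was no site in any library in 2 WRKY genes, WRKY10 and WRKY12 (3.92%), against 21.4% of all protein-coding genes. The remaining 8 members lay between these states. By library, the promoter window held a site in 42, 45 and 43 WRKY genes, which is 82.4%, 88.2% and 84.3% of them, against 49.4%, 63.6% and 57.5% of all protein-coding genes. The share of members with a promoter site was above the background share in each library, including library 2, whose list of sites was the longest.

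The read signal, which comes from the same reads but does not depend on site calling, was also higher over WRKY promoters. The median promoter signal of the WRKY genes was 1.79, 2.17 and 1.71 times the library mean in libraries 1, 2 and 3, against 1.25, 1.34 and 1.27 for all protein-coding genes. The means of these medians were 1.89 ± 0.243 for WRKY genes and 1.29 ± 0.0495 for all protein-coding genes (SD, n = 3 libraries), and the ranges over libraries did not overlap. Of the 51 members, 46 were at or above the median protein-coding gene, 30 were at or above percentile 75 and 12 at or above percentile 90. Each promoter was then compared with the library mean by edgeR's quasi-likelihood test. WRKY promoters above the library mean numbered 47 of 51 (Benjamini-Hochberg adjusted p under 0.05), against 60.2% of all protein-coding genes tested. WRKY promoters below it numbered 3 of 51, against 24.3% of all tested. The p-values measure only the spread between these libraries, which the test estimates for each gene in part from all protein-coding genes together.

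The library mean is a low bar for a promoter, since the median promoter of all protein-coding genes itself lay 0.37 above it on the log2 scale. Compared with the median promoter of each library instead, 43 WRKY promoters were above, against 41.5% of all protein-coding genes tested. Below it were 4 WRKY promoters, against 40.7% of all tested. WRKY13 was the member that joined WRKY10, WRKY12 and WRKY34 below, and WRKY27, WRKY30, WRKY35 and WRKY9 were not distinguished from the median promoter.

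**Figure D1:**
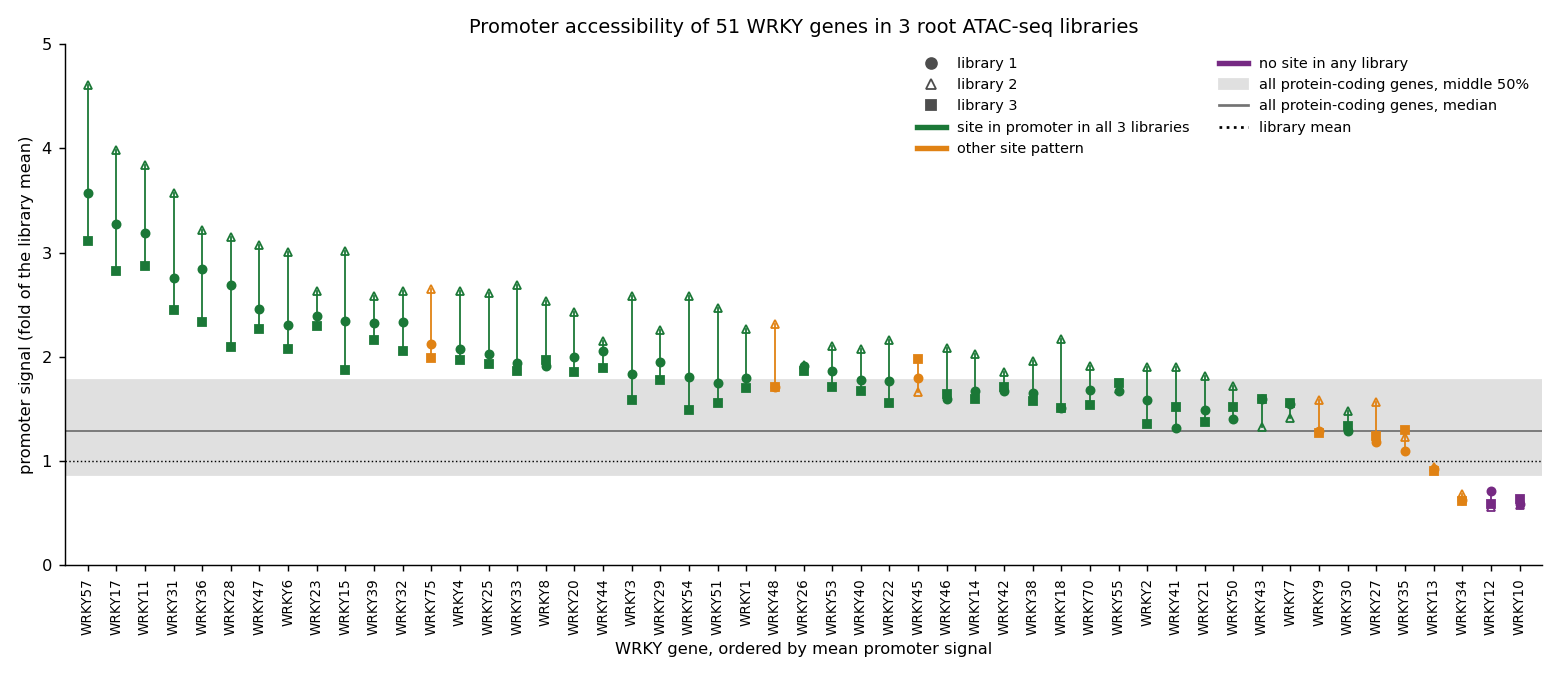
Promoter signal of each of the 51 WRKY genes (y axis, fold of the library mean) in libraries 1, 2 and 3, ordered by mean signal, with colours for the site pattern, a grey band for the middle 50% of all protein-coding genes and a grey line for their median. WRKY57 is highest at 3.11 to 4.61, and WRKY34, WRKY12 and WRKY10 lie below 1 in each library.

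Around the TSS, the averaged signal of the 51 WRKY genes was highest at -25 bp in each library, at 2.44, 3.05 and 2.26 times the library mean. For all protein-coding genes the highest values were 1.71, 2.02 and 1.61, at the TSS itself in libraries 1 and 3 and at -25 bp in library 2. The WRKY genes also had a broad shoulder further upstream. At -750 bp they averaged 1.97, 2.29 and 1.70 times the library mean, against 1.23, 1.34 and 1.21 for all protein-coding genes. Further out, at -1225 bp, they averaged 1.85, 2.29 and 1.74, against 1.15, 1.19 and 1.15. The WRKY signal was still 1.51, 1.80 and 1.49 at -2000 bp, against 1.11, 1.12 and 1.11. At -450 bp, between the shoulder and the start, the WRKY genes had 1.47, 1.95 and 1.48, against 1.26, 1.40 and 1.24. The signal of the WRKY genes at -450 bp was lower than at -750 bp in each library, whereas that of all protein-coding genes was higher at -450 bp than at -750 bp in each library. At 1000 bp downstream of the TSS the WRKY genes had 1.06, 1.10 and 1.18 times the library mean, against 1.04, 0.987 and 1.07. This was the smallest difference among the positions given here, and it did not persist further into the gene. At 1300 bp downstream the WRKY genes had 1.35, 1.41 and 1.31, against 1.04, 0.983 and 1.08 for all protein-coding genes.

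**Figure D2:**
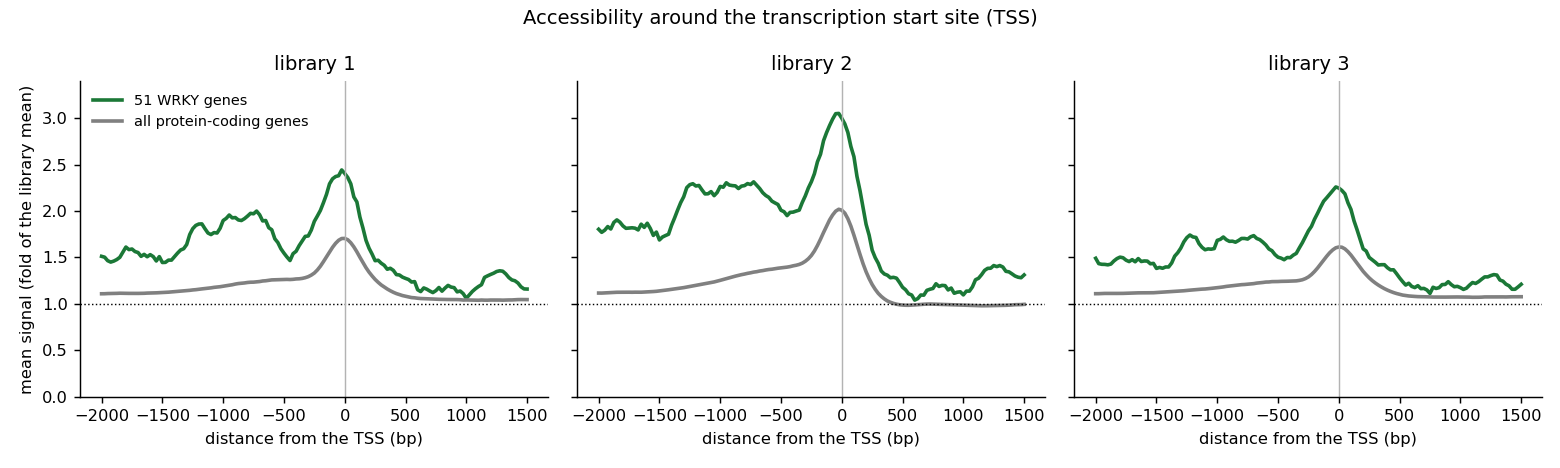
Mean signal (y axis, fold of the library mean) by distance from the TSS (x axis, bp; negative is upstream) in each library, for the 51 WRKY genes (green) and all protein-coding genes (grey). The WRKY line peaks at -25 bp at 2.44, 3.05 and 2.26 in libraries 1, 2 and 3 and has a shoulder near -750 bp. Upstream of the TSS it stays above the grey line out to -2000 bp.

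WRKY genes had more sites per gene, while the median strength of these sites was close to that of all shared sites. Merging the lists gave 165 sites between 2000 bp upstream of the TSS and the end of a WRKY gene, of which 99 were found in all 3 libraries, 26 in 2 and 40 in 1. There were 1.94 shared sites per WRKY gene on average, against 0.909 per protein-coding gene. At least 2 shared sites were present in 33 WRKY genes (64.7%), against 23.6% of all protein-coding genes, and at least 3 in 15 WRKY genes (29.4%), against 7.95%. The authors' fold enrichment of a shared site, taken as the geometric mean over libraries, had a median of 3.16 for WRKY genes, against 3.17 for all shared sites, and the median width was 256 bp, against 284 bp. The median gene length was 2246 bp for the WRKY genes, against 2078 bp for all protein-coding genes, and its part in the number of sites was not tested.

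Most shared sites of the WRKY genes lay upstream. The positions given here were not counted for all protein-coding genes, so they describe the family without a comparison. The summit was upstream of the TSS in 76 of the 99 shared sites, of which 21 lay within 400 bp, 24 beyond that and within 1000 bp and 31 beyond 1000 bp. A further 16 summits lay in untranslated exons, 5 in coding exons and 2 in introns. The member was the gene with the nearest TSS for 82 of the 99 sites, and the other 17 were nearest to the TSS of another gene. A gene upstream began or ended within 1000 bp of the TSS in 10 members, 5 of them in divergent orientation. In these members the promoter window also covered part of the neighbouring gene. The strongest shared site was at -1362 bp from the TSS of WRKY54, at chr2:17003844-17003986, with the authors' fold enrichment of 4.78, 4.98 and 3.77 in libraries 1, 2 and 3. WRKY54 acts in salicylic acid signalling together with WRKY70. The widest shared site covered 1260 bp upstream of WRKY38, a gene of the same protein group.

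**Figure D3:**
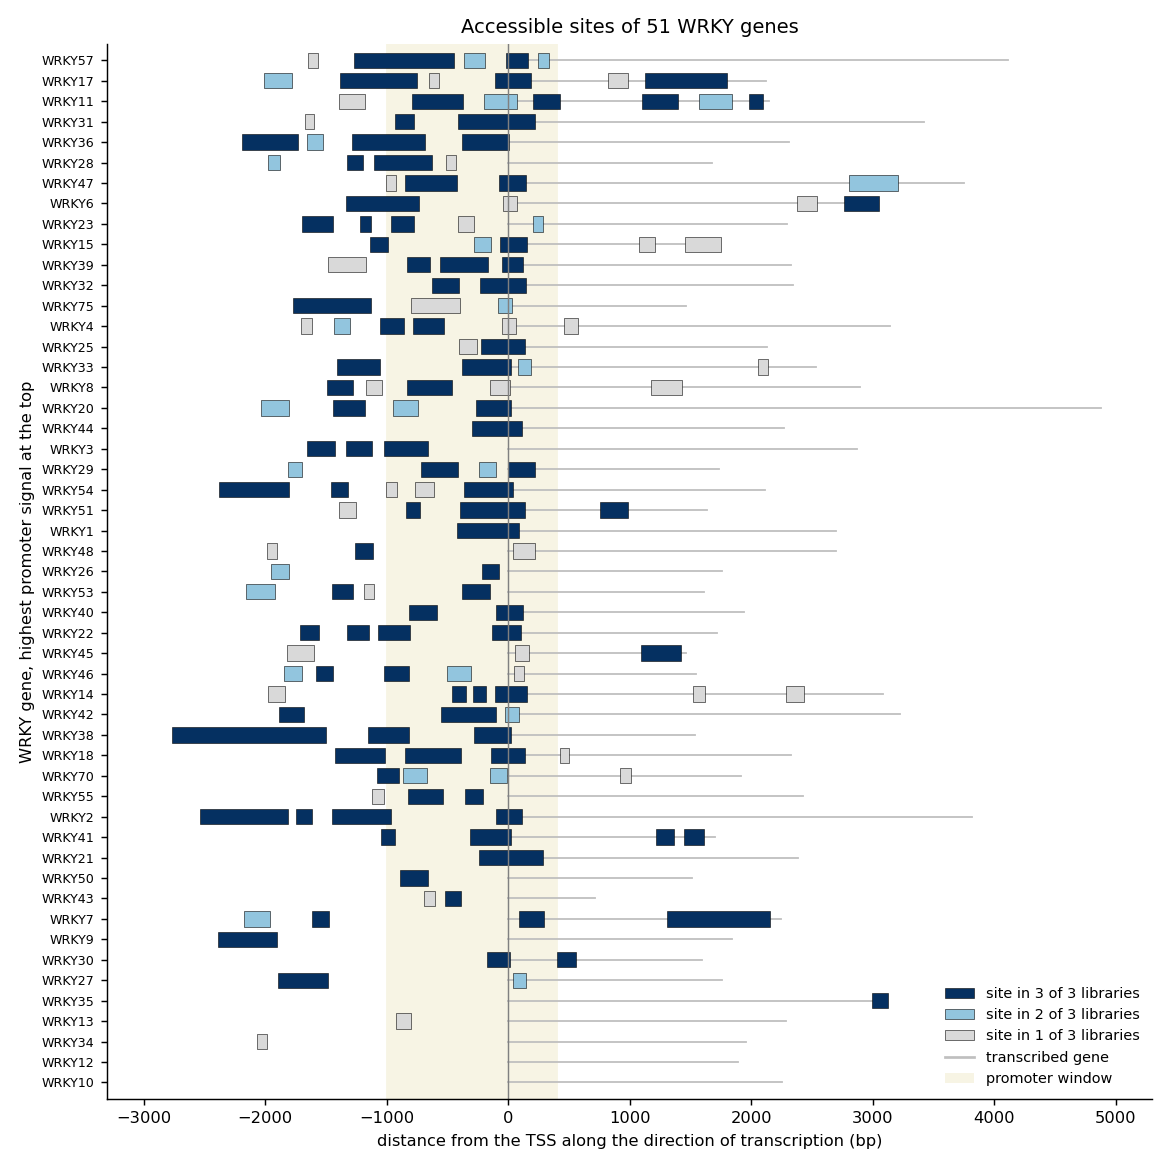
Position of each accessible site relative to the TSS (x axis, bp along the direction of transcription) of the 51 WRKY genes (rows, highest promoter signal at the top), with dark bars for sites in all 3 libraries, light blue for 2, grey for 1, and a grey line for the gene. WRKY11 has the most sites, 7, and the bottom rows, WRKY12 and WRKY10, have none.

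The highest promoter signal was that of WRKY57, a factor linked to drought tolerance and to the antagonism of jasmonate and auxin in leaf senescence. It had 3.57, 4.61 and 3.11 times the library mean in libraries 1, 2 and 3, above 99.7% of all protein-coding genes (log2 1.91, edgeR adjusted p = 4.39e-12). Its gene is chr1:26054275-26058383, and it had 2 shared sites, the upstream site printed above and a site whose summit lay 103 bp into the untranslated exon. WRKY17 had 3.27, 3.99 and 2.82 times the library mean, and WRKY11 had 3.19, 3.84 and 2.88. These members of group IId, whose proteins bind calmodulin, exceeded 98.9% or more of all protein-coding genes. Both had sites upstream as well as along the transcribed gene, 6 sites in all for WRKY17 and 7 for WRKY11. The sites furthest into these genes, with summits 1731 and 2012 bp downstream of the TSS, were nearer to the TSS of another gene. WRKY14 and WRKY4 also had 6 sites each, of which 3 and 2 were shared. WRKY14, of group IIe, had 1.67, 2.02 and 1.60 times the library mean, and WRKY4, which acts in resistance to necrotrophic fungi, had 2.08, 2.63 and 1.97.

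WRKY31 (AT4G22070) had 2.76, 3.57 and 2.45 times the library mean and WRKY36 (AT1G69810) had 2.84, 3.22 and 2.34. Both belong to group IIb. WRKY31 had a shared site of 628 bp with its summit at -152 bp and the authors' fold enrichment of 4.40, 4.19 and 3.82. WRKY36, which acts in the photomorphogenic response to UV-B light, had shared sites with summits at -96, -1014 and -1808 bp, the last of them nearer to another gene. In each of these 5 highest members library 2 gave the highest value and library 3 the lowest.

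Library 2 was also the highest in most of the family. After scaling each library to its median promoter, library 2 was highest in 41 of the 51 WRKY genes (80.4%), against 42.05% of all protein-coding genes. The averaged TSS peak of all protein-coding genes was also highest in library 2, at 2.02, against 1.71 and 1.61 in libraries 1 and 3. Whether other promoters of high signal have a share like that of the WRKY genes was not tested. Library 2 was intermediate in its amount of nuclei, and the part of this amount in the differences between libraries was not tested. The ratio of the highest to the lowest library had a median of 1.24 for WRKY genes, against 1.19 for all protein-coding genes. It was largest for WRKY54 at 1.64, WRKY3 at 1.53 and WRKY15 at 1.52, all above the 90th percentile of all protein-coding genes, which was 1.47. WRKY54 had 1.81, 2.59 and 1.49 times the library mean, WRKY3 had 1.83, 2.58 and 1.59 and WRKY15 had 2.34, 3.01 and 1.87. Library 2 was highest and library 3 lowest in each of these 3 genes. The call of WRKY3 also rested on the upstream part of its window, since from -400 bp to the TSS its log2 value was -0.04 (edgeR adjusted p = 0.779). All 3 of its shared sites lay upstream of this stretch.

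The 4 lowest members are known from organs other than the root, by a role list chosen with earlier results of these data known. WRKY57, WRKY17 and WRKY11, which are described above from leaves, are outside that list. Their promoter signals were the highest, with means of 3.76, 3.36 and 3.30. WRKY10 (AT1G55600, chr1:20774046-20776294), which is MINISEED3 and acts in the endosperm, had 0.587, 0.579 and 0.634 times the library mean (log2 -0.73, edgeR adjusted p = 5.86e-06). WRKY12 (AT2G44745, chr2:18447203-18449093), which represses secondary wall formation in the pith of the stem, had 0.716, 0.562 and 0.586 (log2 -0.69, adjusted p = 1.23e-05). Neither gene had a site in any library. WRKY34 (AT4G26440), a pollen factor, had 0.625, 0.683 and 0.619 (log2 -0.65, adjusted p = 1.69e-05), and its only site was found in library 2 with its summit at -2046 bp, nearer to another gene. WRKY13 (AT4G39410), which acts in stem development, had 0.923, 0.942 and 0.906 and was the only member not distinguished from the library mean (log2 -0.12, adjusted p = 0.221). Its only site was found in library 2 alone. WRKY35 (AT2G34830) was the next lowest at 1.10, 1.23 and 1.301 (log2 0.29, adjusted p = 0.00156), and this call was lost without library 3 (adjusted p = 0.100). Its only site lay 3098 bp downstream of the TSS, near the gene end and nearer to another TSS.

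The promoters of the members without a site are given for comparison with the accessible stretches, from 250 bp upstream to the base before the TSS, and were picked after their values were seen. That of WRKY12 is chr2:18449094-18449343 and that of WRKY10 is chr1:20776295-20776544, both on the minus strand.
WRKY12: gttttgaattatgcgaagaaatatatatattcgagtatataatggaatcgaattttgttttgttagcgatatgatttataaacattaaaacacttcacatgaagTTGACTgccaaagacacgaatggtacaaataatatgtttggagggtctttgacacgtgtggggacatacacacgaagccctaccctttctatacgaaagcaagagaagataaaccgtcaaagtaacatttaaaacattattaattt
WRKY10: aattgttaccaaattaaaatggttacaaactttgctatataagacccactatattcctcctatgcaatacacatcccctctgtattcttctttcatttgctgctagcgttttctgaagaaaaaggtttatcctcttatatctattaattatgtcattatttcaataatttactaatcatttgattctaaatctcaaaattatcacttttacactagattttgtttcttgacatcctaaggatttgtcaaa
A single W-box was found in the printed bases of WRKY12 and none in those of WRKY10. Over the whole promoter window they held 2 and 1, against 1.60 per gene for all protein-coding genes.

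The family was divided by the lists of known roles, which were chosen with earlier results of these data known. Members known from root growth or nutrition were above the library mean in 7 of 7 cases, against 60.2% of all protein-coding genes tested, and open in 5 of 7, against 46.4% of all protein-coding genes and 80.4% of the whole family. WRKY6 and WRKY42, which repress the phosphate exporter gene PHO1, had 2.30, 3.00 and 2.07 and 1.67, 1.85 and 1.71 times the library mean in libraries 1, 2 and 3. WRKY23, which acts downstream of auxin in root development, had 2.39, 2.63 and 2.29, with 3 shared sites between -832 and -1624 bp. WRKY44, known as TTG2 and active in the non-hair cells of the root epidermis, had 2.06, 2.15 and 1.89, and its single site in all libraries spanned the TSS. WRKY46, which acts in lateral root growth under osmotic stress, had 1.59, 2.08 and 1.64. The members of this list that were not open were WRKY75 and WRKY45, which act in the phosphate response. WRKY75 had 2.12, 2.66 and 1.99 times the library mean and a site shared by all libraries at -1372 bp, but sites in its promoter window were found only in libraries 2 and 3. WRKY45 had 1.79, 1.67 and 1.98 and a promoter site only in library 2. A gene on the same strand ended 43 bp upstream of the WRKY45 TSS, so its promoter window also covered part of that gene. Signal and site calls therefore differed for these members, whose promoters exceeded the library mean in each library.

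Members known from immunity and stress were open in 10 of 10 cases, against 46.4% of all protein-coding genes, and above the library mean in all 10, against 60.2% of those tested. Their promoter signal ranged between 1.71 and 3.36 as the mean of the libraries, with a median of 1.93, against a median of 1.29 for all protein-coding genes. WRKY33, which controls camalexin synthesis, had 1.94, 2.69 and 1.86 times the library mean. The repressors of early immune responses WRKY18 and WRKY40 had 1.51, 2.17 and 1.51 and 1.78, 2.08 and 1.68. WRKY53, a regulator of leaf senescence, had 1.86, 2.104 and 1.71, and WRKY70 had 1.68, 1.92 and 1.54. WRKY22 and WRKY29, which act downstream of flagellin perception, had 1.77, 2.17 and 1.56 and 1.95, 2.26 and 1.78. The plants were not described as infected or treated. Of the 5 members listed under other organs, 1 was above the library mean and 3 below, with a median of 0.643. The exception was WRKY2, which acts in pollen and in the zygote, with 1.59, 1.90 and 1.35 and 4 shared sites, of which 3 were nearest to the TSS of another gene and the fourth had its summit at -49 bp. The remaining 29 members, which are in none of these lists, were all above the library mean, with a median of 1.92.

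By protein group, the median promoter signal was 2.53 for group IIb (6 genes), 2.38 for IId (6), 2.02 for I (12), 1.92 for IIc (12), 1.79 for IIa (2), 1.76 for IIe (5) and 1.72 for III (8). The groups overlapped widely, with values between 0.621 and 3.76 within group IIc alone, and no test between groups was made. The open members were 8 of 8 in group III, 6 of 6 in group IId and 2 of 2 in group IIa, against 46.4% of all protein-coding genes. Group IIc, which holds WRKY12, WRKY13, WRKY45, WRKY48 and WRKY75, had 7 of 12 open. Group III, several members of which act in salicylic acid signalling and senescence, had all members open but only 2 at or above percentile 75 of protein-coding genes, whereas group IIb had 4 of 6 there.

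**Figure D4:**
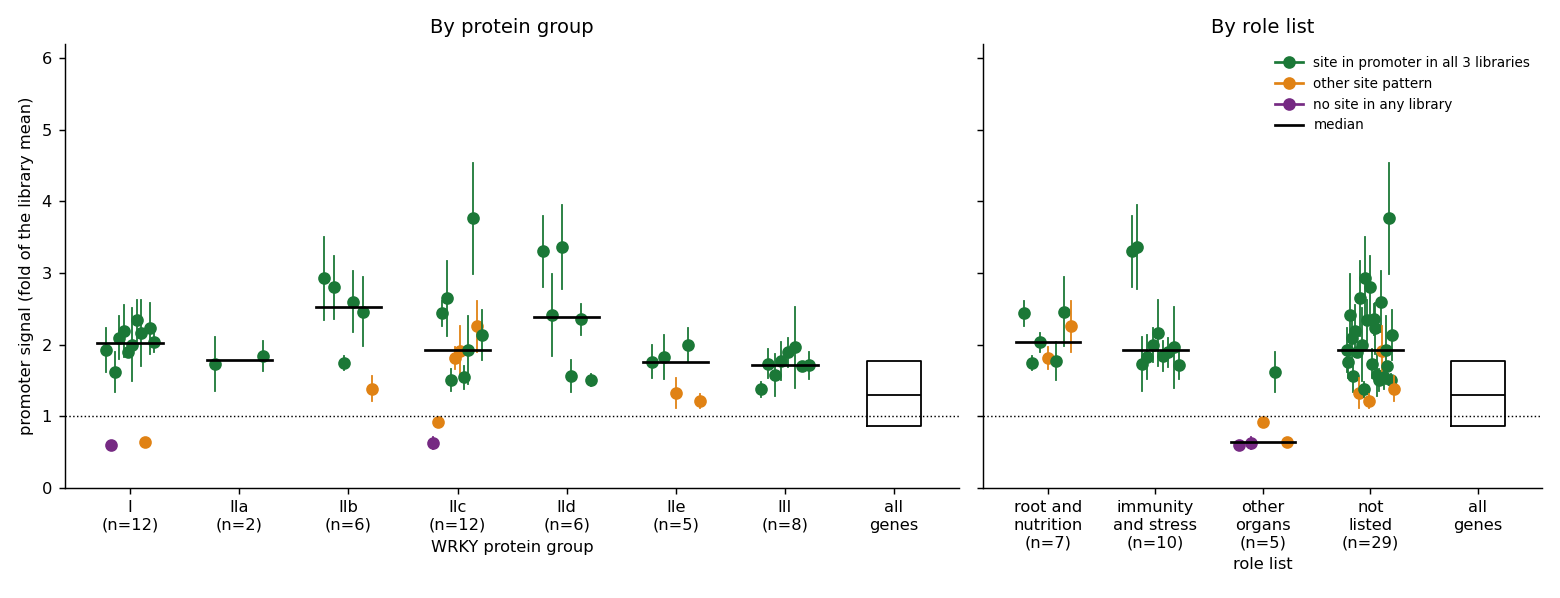
Mean promoter signal of each WRKY gene over 3 libraries (points, fold of the library mean; vertical lines are the SD) by protein group (left) and by role list (right), with black bars for medians and boxes for the middle 50% and median of all protein-coding genes. The list of other organs has a median of 0.643 and holds both genes with no site.

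The promoter was also compared with the gene body beyond 400 bp downstream of the TSS in the same libraries. The WRKY gene bodies had a median of 1.14, 1.16 and 1.18 times the library mean, against 1.02, 0.924 and 1.07 for all protein-coding genes. The promoter was above the body in 40 of 51 WRKY genes (edgeR's quasi-likelihood test with the library as a block, adjusted p under 0.05), against 52.7% of all protein-coding genes tested. The promoter was below the body in 4 WRKY genes, against 14.7% of all tested. Without library 1 these numbers were 28 and 1, and 38.96% of all protein-coding genes tested were then above.

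The members below were WRKY7, WRKY41, WRKY45 and WRKY34. WRKY7 (AT4G24240), of the calmodulin-binding group IId, had 1.55, 1.41 and 1.56 times the library mean in its promoter and 2.76, 2.68 and 2.38 in its body (log2 of promoter over body -0.78, edgeR adjusted p = 2.43e-05). Its body held a shared site of 850 bp in a coding exon with its summit 1786 bp downstream of the TSS, at chr4:12572845-12573694. The promoter of WRKY7 was above the library mean in the window that includes 400 bp downstream of the TSS (log2 0.59), whereas from -1000 bp to the TSS its log2 value was -0.12 (adjusted p = 0.296). WRKY41 had 1.32, 1.90 and 1.52 in its promoter and 1.79, 2.37 and 1.82 in its body, with shared sites in its coding exons 1314 and 1545 bp downstream. WRKY45 had 1.79, 1.67 and 1.98 in its promoter and 2.40, 2.26 and 2.19 in its body, where a shared site lay in the last, untranslated part, nearer to another gene. Its promoter window also covered part of the gene 43 bp upstream. WRKY34 had no site in its body. Of these calls, those of WRKY34, WRKY41 and WRKY45 were lost without library 1 (edgeR adjusted p = 0.0575, 0.349 and 0.348) and without library 3 (0.223, 0.0914 and 0.0512), and that of WRKY7 was kept (0.0162 and 1.6e-05). The direction of WRKY41 turned with the window from -400 bp to the TSS (log2 0.09, adjusted p = 0.662). WRKY17 and WRKY11 had accessible bodies as well as promoters. The body of WRKY17 had 2.70, 3.27 and 2.51 times the library mean, and its promoter did not pass the test against it (log2 0.24, adjusted p = 0.112). In WRKY11 the body had 2.49, 2.84 and 2.53, and the promoter passed (log2 0.32, adjusted p = 0.0376) but not without library 1 (adjusted p = 0.360).

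**Figure D5:**
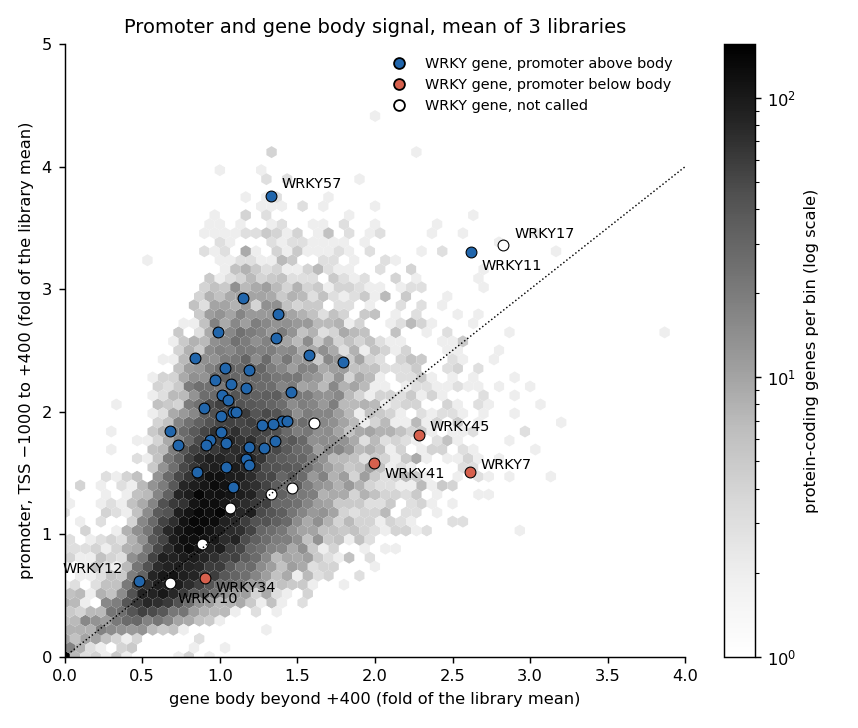
Promoter signal (y axis) against gene body signal (x axis), both as the mean fold of the library mean over 3 libraries, with WRKY genes as points coloured by the test of promoter against body and all protein-coding genes as grey bins on a log colour scale; the dotted line marks equal values. WRKY7, WRKY41 and WRKY45 lie below the line with bodies of 2.61, 1.99 and 2.28, and WRKY34 lies below it at low signal. WRKY10 and WRKY30, which were not called, also lie below it.

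Since WRKY proteins bind the W-box, its letters were searched on both strands, with overlapping matches counted. A W-box can share a base with a neighbouring G-box (CACGTG), and each was counted by itself. From 250 bp upstream to 50 bp downstream of the TSS, 19 WRKY genes (37.3%) held a W-box, against 32.4% of all protein-coding genes. At least 2 W-boxes were present in 10 WRKY genes (19.6%), against 7.70%. Over the whole promoter window 43 WRKY genes (84.3%) held a W-box, with 2.14 per gene, against 77.6% and 1.60 per gene for all protein-coding genes. WRKY17 had the most, 8, followed by WRKY11 with 6. The G-box, bound by other transcription factor families, was found from 250 bp upstream to 50 bp downstream in 7 WRKY genes (13.7%), against 7.68% of all protein-coding genes. The median GC content of the promoter window was 32.1% for WRKY genes, against 34.6%, and its part in these shares was not tested.

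In windows of 200 bp on the summits of sites overlapping the promoter window of a WRKY gene, a W-box was found at 41.9%, 35.96% and 39.2% of the sites of libraries 1, 2 and 3, against 25.9%, 26.3% and 24.98% of all sites. The sites of the libraries overlap and were counted once per library, so these are not independent values. Over their whole width, 48 of the 99 shared sites of WRKY genes held a W-box (48.5%), against 37.6% of all 20186 shared sites, and 24 held at least 2 (24.2%), against 11.8%. The mean width was 315 bp for the sites of WRKY genes, against 328 bp for all shared sites. The WRKY sites were limited to promoter windows in the first comparison and to 2000 bp upstream through the gene end in the second. Both backgrounds held sites at any position in the genome, and the part of position in these shares was not tested. A match is a description of the letters and not of binding. For each member, up to 300 bp on the summit of its strongest shared site upstream of the TSS and outside transcribed genes, with an edge within 1000 bp of the TSS, were searched. The stretches with the most W-boxes, 3 each, belonged to WRKY18, WRKY30 and WRKY33. They are printed to show how the boxes lie in accessible DNA and were picked after the search. WRKY18 (AT4G31800) is chr4:15382011-15382310 on the plus strand, with its summit at -616 bp. WRKY30 (AT5G24110) is chr5:8154711-8154882 on the minus strand, ending at the TSS, and WRKY33 (AT2G38470) is chr2:16107935-16108234 on the plus strand, also ending at the TSS.
WRKY18: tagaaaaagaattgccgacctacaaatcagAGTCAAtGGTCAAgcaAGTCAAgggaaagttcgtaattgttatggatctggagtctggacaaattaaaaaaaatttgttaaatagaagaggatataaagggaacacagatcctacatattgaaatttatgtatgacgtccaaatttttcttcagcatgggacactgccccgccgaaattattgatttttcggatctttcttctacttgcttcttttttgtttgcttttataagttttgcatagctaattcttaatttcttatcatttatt
WRKY30: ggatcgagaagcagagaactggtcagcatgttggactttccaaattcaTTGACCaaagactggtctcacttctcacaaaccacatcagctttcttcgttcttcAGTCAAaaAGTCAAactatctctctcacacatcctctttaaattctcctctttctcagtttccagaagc
WRKY33: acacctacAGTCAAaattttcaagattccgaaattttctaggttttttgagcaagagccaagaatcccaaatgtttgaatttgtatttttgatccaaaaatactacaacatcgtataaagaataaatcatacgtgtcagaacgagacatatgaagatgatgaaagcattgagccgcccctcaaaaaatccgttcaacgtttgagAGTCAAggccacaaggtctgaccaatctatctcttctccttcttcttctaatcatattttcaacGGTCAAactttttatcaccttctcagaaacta
In WRKY18 the boxes lay close together at the distal end of the stretch, and in WRKY33 they were spread along it. The site of WRKY18 had the authors' fold enrichment of 3.30, 3.75 and 2.83 in libraries 1, 2 and 3, that of WRKY30 had 2.71, 3.83 and 2.96, and that of WRKY33 had 3.43, 3.54 and 3.02. WRKY30 had these boxes and an open promoter at a modest signal of 1.29, 1.49 and 1.34 times the library mean, so many boxes did not go with a high promoter signal in this gene.

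Genes that act with WRKY factors were examined in a list of 20. Of these, 17 were open and 17 were above the library mean, with 2 below, in the same edgeR test. The shares of all protein-coding genes were 46.4% open, 60.2% above and 24.3% below. The median of the list was 1.86, against 1.29 for all protein-coding genes. The 5 kinases MPK3, MPK4, MPK6, MKK4 and MKK5, which phosphorylate WRKY proteins or act just above, were all open, with MPK3 highest at 2.23, 3.08 and 2.08. The 3 VQ partners MKS1, SIB1 and SIB2 were open, as were the 5 receptors and regulators. Among the receptors BAK1, a co-receptor in flagellin perception, had 3.50, 3.94 and 3.02 times the library mean. The 7 target genes were mixed, with 4 open and 3 at or above the median protein-coding gene. Their median was 1.15, against 1.29 for all protein-coding genes. The exporter gene PHO1 was open at 1.04, 1.37 and 1.05 times the library mean. PHT1;1, a phosphate transporter gene activated by WRKY42 and WRKY45, had 3.17, 3.96 and 2.65. In contrast, the salicylic acid marker PR1 had 0.716, 0.688 and 0.683 and the camalexin gene CYP71A13 had 0.679, 0.746 and 0.709, and neither had a site in any library.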

How the data were processed

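The deposited files rest on uniquely placed, deduplicated reads (Bowtie on TAIR10, then SAMtools). The authors deposited, per library, counts of reads in windows of 100 bp every 25 bp (raw counts, empty windows left out) and a list of sites called with MACS2 (fixed shift and extension of reads, no fragment model), with a score, a fold enrichment (a ratio over the background of the caller) and p-values and q-values as −log10. The deposited score was not used. A shift of reads in the window counts is not given in the sources used here.

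Genes and sequences came from RefSeq (TAIR10.1), and the windows ended within its chromosome lengths. A window was assigned to a region by its centre. Window counts were summed, divided by the windows per read (6.27, 6.34 and 6.28) and rounded to estimated reads. Each promoter was compared with the reads expected from the library total by edgeR 4.0.16 (R 4.3.3). Its quasi-likelihood fit was used with an F statistic built from the fitted and expected deviances, since the tool's own test needs a design of at least 2 columns. Bodies of at least 300 bp were compared with promoters by the same tool with the library as a block. Both fits ran over all protein-coding genes with Benjamini-Hochberg adjustment and were tested on simulated data. Sites of the libraries were merged on an overlap of 1 bp, and a library counted only where its own site overlapped the window. limma 3.58.1 (pseudocount of 1 read), DESeq2 1.42.0 and other windows, scalings and thresholds were alternatives.

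The members and the lists of roles, groups, pathway genes and markers were chosen with earlier results of these data known. Members named were the 5 highest and 5 lowest by promoter signal, those with no site, the 3 with the largest ratio between libraries, the 3 with the most sites (with WRKY4, which tied), and the role lists. Others were named after their values were seen. WRKY1 and WRKY44 were matched through synonyms, since the annotation names them ZAP1 and TTG2.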

Additional observations from a re-analysis of the deposited data

How the results depend on the processing

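The number of WRKY promoters above the library mean (47) stayed between 43 and 47 under limma, DESeq2, TMM, DESeq2 size factors, other windows, other levels and a filter of 50 reads, and 46 to 47 with libraries left out 1 at a time. Over the same settings 41.5% to 60.7% of all protein-coding genes tested were above, and 56.2% to 61.4% with libraries left out. WRKY promoters below (3) numbered 3 or 4, against 20.8% to 40.7% of all tested. The median promoter signal was 1.47 with the median promoter as the level, by construction, and 1.75 to 1.98 with 1 library left out. The promoter was above the body in 37 to 40 WRKY genes over the settings with all libraries, 39 of them without the replicate block, and in 28 to 40 with 1 library left out. Of all protein-coding genes tested, 50.7% to 52.7% were above with all libraries and 38.96% to 52.3% with 1 library left out. The promoter was below the body in 3 WRKY genes without the replicate block, in 2 with the window from -400 bp to the TSS, and in 1 to 4 with 1 library left out. The shares of all protein-coding genes tested were 12.3%, 14.9% and 8.88% to 18.6% in the same order. Open members numbered 41, with 28 in the narrow window from -400 bp to the TSS, 33 at a −log10 q of at least 5, 38 without sites nearer to another TSS, 47 up to the gene end and 41 to 42 with 1 library left out. Members with no site numbered 5 at a −log10 q of at least 5, 5 in the promoter window, 4 by summits and 2 to 4 with 1 library left out, the highest without library 2. The shares of all protein-coding genes were not computed for these alternative counts of open members and of members with no site. Against the median promoter, the log2 value of the WRKY35 promoter was -0.0785. From -400 bp to the TSS, the log2 value of WRKY3 was -0.0432 against the library mean and -0.142 against its body, and those of WRKY41 and WRKY30 were 0.0946 and 0.266 against their bodies. From -1000 bp to the TSS, those of the WRKY7 and WRKY13 promoters were -0.124 and 0.0234. Against the body and with 1 library left out, WRKY27 had -0.116 to 0.0819, the highest without library 3, and WRKY13 had -0.138 to 0.187, the lowest without library 2. WRKY13, WRKY27 and WRKY30 were not called in these tests in either direction. Of 612 alternative promoter values of the members, 600 kept direction and call, and of 306 values against the body, 270 did. Apart from the level set by construction, the cause was not tested. Libraries 1 and 2 held an estimated 9850039 and 10223285 reads, against 18130442 in library 3, and the part of depth in these values was not tested.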
